A study of Mus musculus with 4 samples.

Results

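Chemokine receptors are membrane proteins that steer leukocytes along gradients of small secreted proteins, the chemokines. The 8 receptor genes described here, Ccr1, Ccr2, Ccr3, Ccr7, Ccrl2, Cx3cr1, Cxcr3 and Cxcr4, were listed by symbol for their relevance to macrophage migration, and all 8 were found among the 21878 genes of the count table. In macrophages of anti-Act1 mice, Ccrl2 was 1.61-fold higher than in WT macrophages, Ccr3 was 1.93-fold lower and Ccr2 was 1.61-fold lower. The most abundant receptors of the list, Ccr1 and Cxcr4, each differed by a factor of 1.04, which did not pass the test. Cxcr3, Ccr7 and Cx3cr1 did not pass the test either.

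The macrophages were grown from bone marrow of C57BL/6 mice (C57BL/6 J in the paper's methods) that the labels give as 8 weeks old, and shared the medium of MC38 cells, a mouse colon cancer line, through a transwell insert. All 4 libraries had this coculture, which the labels put at 48 h and the paper's text at a shorter time. There were 2 libraries labelled anti-Act1, the study's name for mice with a macrophage-specific knockdown of Act1, and 2 labelled WT. Act1 is an adaptor protein of interleukin 17 signalling, and the promoter that drives the knockdown is not given in the sources used here. Total counts were 64199075 and 75062945 in the WT libraries and 61926229 and 55435063 in the anti-Act1 libraries. Traf3ip2, the gene of Act1, was at 6.98 and 7.54 CPM (counts relative to library size) in the WT libraries and at 9.63 and 7.84 CPM in the anti-Act1 libraries, and its log2 fold change was 0.27 (standard error 0.12, edgeR adjusted p = 0.117). Without anti-Act1 replicate 2 this was 0.41 and passed the test (edgeR adjusted p = 0.0343), and without anti-Act1 replicate 1 it was 0.11 (edgeR adjusted p = 0.723). The transcript of the targeted gene was therefore not lower under the label anti-Act1, and each direction below rests on the labels. In a separate measurement the paper reports less Act1 in macrophages grown from the bone marrow of anti-Act1 mice. The groups also differed in 4 Y-linked genes, whose summed level was 228 and 246 CPM in the WT libraries and 0.0162 and 0 CPM in the anti-Act1 libraries, so that the sex of the mice and the label cannot be told apart.

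Most chemokine receptors signal through inhibitory G proteins, which lead to cytoskeletal movement towards the chemokine, and are then switched off by receptor kinases, arrestins and regulators of G protein signalling. Atypical receptors such as Ccrl2 and Ackr3 bind a ligand without this G protein signal. In macrophages, Ccr2 is known for bringing monocytes out of the bone marrow, Ccr1 for responses to inflammatory chemokines, Cxcr4 for retention by Cxcl12, and Ccr7 for homing to lymph nodes. The libraries held whole cultures, and fewer cells of a type cannot be told apart from less RNA per cell.

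Levels of different genes were compared as FPKM, the authors' value per length of gene and per library total. Ccr1, a receptor for inflammatory chemokines such as Ccl3 and Ccl5, was the highest at 246 and 252 FPKM in the WT libraries and 262 and 247 FPKM in the anti-Act1 libraries. Cxcr4, the receptor of Cxcl12, followed at 222 and 224 FPKM (WT) and 225 and 232 FPKM (anti-Act1). Ccrl2, an atypical receptor that binds the chemoattractant chemerin, was the third, at 69.0 and 69.8 FPKM (WT) and 113 and 107 FPKM (anti-Act1). These 3 genes carried nearly all of the summed FPKM of the 8 receptors: Ccr1 held 41.7% to 45.2% of it in the 4 libraries, Cxcr4 37.0% to 40.4% and Ccrl2 12.5% to 18.6%.

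The next receptors lay more than an order of magnitude lower. Ccr3, the eotaxin receptor best known from eosinophils, was at 6.68 and 6.32 FPKM in the WT libraries and at 3.22 and 3.38 FPKM in the anti-Act1 libraries. Cxcr3, the receptor of Cxcl9 and Cxcl10, lay between 1.66 and 2.57 FPKM over the 4 libraries. Ccr2, the receptor of Ccl2, lay between 0.771 and 1.57 FPKM, and Ccr7, the receptor of Ccl19, between 0.596 and 0.967 FPKM. Cx3cr1, the fractalkine receptor, was the lowest at 0.0235 to 0.0848 FPKM. In this order only the ranges of Ccr2 and Ccr7 overlapped over the 4 libraries, and within each library Ccr2 was the higher of the pair.

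**Figure D1:**
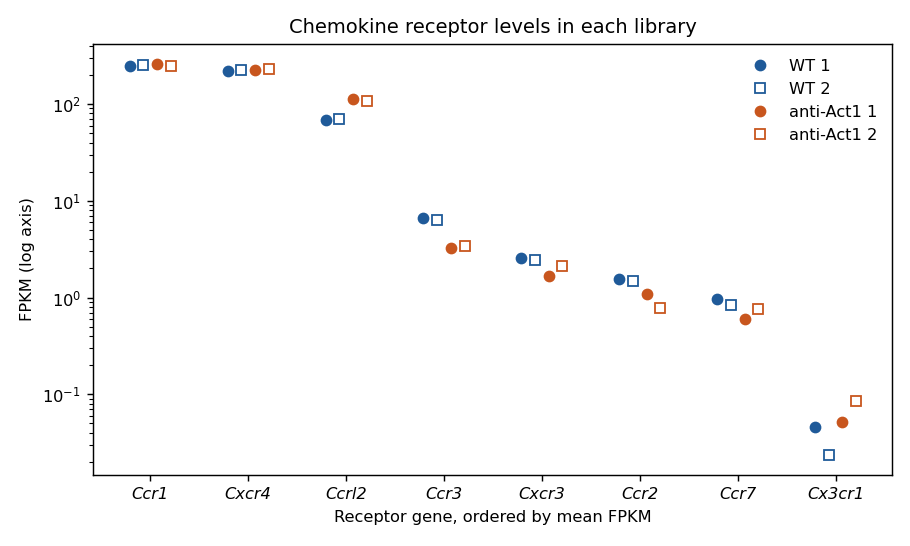
FPKM on a log axis of the 8 receptor genes, ordered by mean level, with 1 point for each library (blue, WT; orange, anti-Act1; circles, replicate 1; squares, replicate 2). Ccr1 and Cxcr4 lie between 222 and 262 FPKM in every library, the anti-Act1 points lie above the WT points for Ccrl2 and below them for Ccr3 and Ccr2, and Cx3cr1 lies under 0.1 FPKM.

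The groups were compared with edgeR's quasi-likelihood test on the counts, with p-values adjusted by Benjamini-Hochberg over the 12494 genes tested and 0.05 as the threshold. CPM values use library totals corrected by TMM factors. Of all genes tested, 10.9% were called higher and 9.76% lower in the anti-Act1 libraries. All 8 receptors were tested, and 1 was called higher, 2 lower and 5 were not called. The median log2 fold change was -0.16 over the 8 receptors and -0.0046 over all genes tested. All 8 receptors had groups that did not overlap in CPM, as did 57.1% of all genes tested, so that with 2 libraries a group this count says little. An exact permutation test of 2 libraries against 2 cannot give a p under 0.333, and the p-values here come from the model across genes. The replicates were described by the study as biological, and their preparation is not given further in the sources used here.

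Ccrl2 was the receptor that rose. It had 131 and 132 CPM in the WT libraries and 216 and 208 CPM in the anti-Act1 libraries, from 8464 to 13366 counts a library. Both anti-Act1 libraries lay far above both WT libraries, and the replicates of each group lay close together. The mean was 131 ± 0.66 CPM (SD, n = 2) in WT and 212 ± 6.3 CPM (SD, n = 2) in anti-Act1, and the log2 fold change was 0.69 (SE 0.05, 95% interval 0.58 to 0.79, edgeR adjusted p = 5.89e-15). Through this rise the share of Ccrl2 in the summed FPKM of the list went from 12.6% and 12.5% in the WT libraries to 18.6% and 18.0% in the anti-Act1 libraries.

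Ccr3 fell. Its level was 17.3 and 16.2 CPM in the WT libraries and 8.40 and 8.94 CPM in the anti-Act1 libraries, from 488 to 1233 counts a library. Both anti-Act1 libraries stood at about the same level, well below both WT libraries. The log2 fold change was -0.95 (SE 0.10, 95% interval -1.15 to -0.76, edgeR adjusted p = 7.14e-11). Of the 9 markers of eosinophils and basophils, the defining genes Epx, Il5ra and Fcer1a were at 0 in all 4 libraries, and 6 of the 9 had at most 10 counts in any library. The summed level of the 9 was 4.16 and 3.66 CPM in the WT libraries and 1.76 and 1.61 CPM in the anti-Act1 libraries, most of it from Siglecf. Siglecf, a sialic acid binding receptor also known from alveolar macrophages, was called lower, with a log2 fold change of -1.32 (standard error 0.20, edgeR adjusted p = 1.68e-06). The part of such cells in the fall of Ccr3 was not tested.

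Ccr2 also fell, with more spread in the anti-Act1 group. It was at 5.71 and 5.43 CPM in the WT libraries and at 4.03 and 2.87 CPM in the anti-Act1 libraries, from 369, 412, 249 and 157 counts. The groups did not overlap, but the 2 anti-Act1 libraries lay further from each other than the WT libraries did. The log2 fold change was -0.68 (SE 0.16, 95% interval -1.0 to -0.37, edgeR adjusted p = 0.000893). Without anti-Act1 replicate 2 it was -0.46 and no longer passed the test (edgeR adjusted p = 0.0657), and without anti-Act1 replicate 1 it was -0.95 (edgeR adjusted p = 2.7e-05). Of 6 markers of monocytes, the cells in which Ccr2 is best known, 4 were tested. F13a1 (log2 fold change -0.69), Spn (-0.68) and Nr4a1 (-0.79) were called lower, and Ly6c2 was called higher (1.04), beside 9.76% lower and 10.9% higher over all genes. The summed level of these markers was 160.0 and 155 CPM in the WT libraries and 101 and 101 CPM in the anti-Act1 libraries, most of it F13a1, and its part in the fall of Ccr2 was not tested. How reads that fit more than one receptor gene were counted is not given in the sources used here.

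Ccr1 and Cxcr4 were measured with the most counts, and their intervals were narrow. Ccr1 was at 691 and 705 CPM in the WT libraries and at 744 and 710 CPM in the anti-Act1 libraries. The higher WT library and the lower anti-Act1 library were nearly level. The log2 fold change was 0.06 (SE 0.05, 95% interval -0.04 to 0.16, edgeR adjusted p = 0.469). Cxcr4 was at 394 and 396 CPM in the WT libraries and at 403 and 421 CPM in the anti-Act1 libraries, with a log2 fold change of 0.06 (SE 0.05, 95% interval -0.04 to 0.16, edgeR adjusted p = 0.450). For both genes the interval leaves room for a rise of up to 0.16 on the log2 scale and a fall of up to 0.04.

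Cxcr3, Ccr7 and Cx3cr1 had few counts and wide intervals. Cxcr3 had 265 and 292 counts in the WT libraries and 165 and 189 counts in the anti-Act1 libraries, which gave 4.10, 3.85, 2.67 and 3.46 CPM. Its log2 fold change was -0.38 (SE 0.17, 95% interval -0.72 to -0.03, edgeR adjusted p = 0.117). Without anti-Act1 replicate 2 it was -0.57 and passed the test (edgeR adjusted p = 0.0487), and without anti-Act1 replicate 1 it was -0.20 (edgeR adjusted p = 0.622). Cxcr3 lies on the X chromosome, and the groups differed in Y-linked genes as given above.

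Ccr7 had 121 and 124 counts in the WT libraries and 72 and 82 counts in the anti-Act1 libraries, or 1.87, 1.63, 1.17 and 1.5 CPM. The anti-Act1 values were the lower ones, with a log2 fold change of -0.40 (SE 0.26, 95% interval -0.91 to 0.12, edgeR adjusted p = 0.306). Cx3cr1 had 10 and 6 counts in the WT libraries and 11 and 16 counts in the anti-Act1 libraries. It passed the filter on low counts only through the anti-Act1 libraries, its exons overlap those of the antisense gene Gm33858 and its log2 fold change was 1.01 (SE 0.71, 95% interval -0.40 to 2.45, edgeR adjusted p = 0.345). For both genes the interval runs from a fall to a rise.

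**Figure D2:**
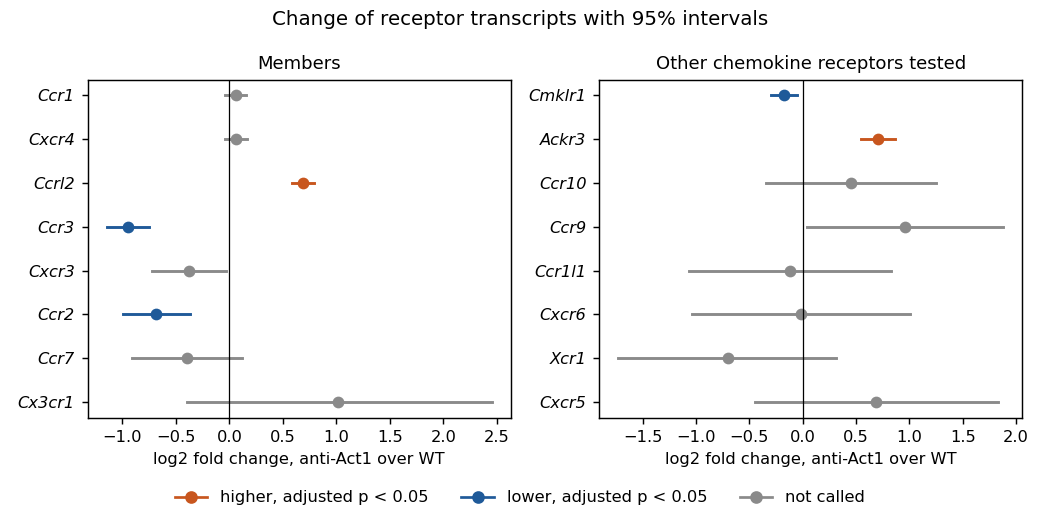
Log2 fold change of anti-Act1 over WT with its 95% interval for the 8 receptors of the list (left) and the 8 other chemokine receptors tested (right), each ordered by level (orange, called higher; blue, called lower; grey, not called). Ccrl2 (0.69) and Ackr3 (0.71) lie to the right of 0, Ccr3 (-0.95) and Ccr2 (-0.68) to the left, and the intervals widen towards the less abundant genes at the bottom.

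The 17 other chemokine receptors set beside the list were mostly absent from these cultures. Of these, 4 (Ccr6, Ccr8, Ackr1 and Gpr1) were at 0 in all libraries, 9 had at most 10 counts in any library, and 8 were tested. Ackr3, the atypical receptor that scavenges Cxcl12, was called higher, at 17.5 and 16.0 CPM in the WT libraries and 25.9 and 28.8 CPM in the anti-Act1 libraries (log2 fold change 0.71, standard error 0.08, edgeR adjusted p = 8.88e-10). Cmklr1, the signalling receptor of chemerin, was called lower, at 50.8 and 48.3 CPM in the WT libraries and 43.7 and 44.0 CPM in the anti-Act1 libraries (log2 fold change -0.17, standard error 0.06, edgeR adjusted p = 0.0372). This small fall did not pass the test with DESeq2 (adjusted p = 0.0819) or without either anti-Act1 library (edgeR adjusted p = 0.217 and 0.177), nor without WT replicate 1 (0.175). The other 6 (Ccr1l1, Ccr9, Ccr10, Cxcr5, Cxcr6 and Xcr1) were not called. These had at most 59 counts in any library, and their log2 fold changes ran from -0.70 for Xcr1 to 0.96 for Ccr9. Of the 8, 1 was called higher and 1 lower (all genes: 10.9% higher, 9.76% lower), and their median log2 fold change was 0.22. Both atypical receptors that were tested, Ccrl2 and Ackr3, were called higher, and none of the signalling receptors tested was. This grouping was made after the values were seen. With 10.9% of all genes called higher, few such calls were due among the signalling receptors. In the 6 with at most 59 counts even a log2 fold change of 0.96 was not called.

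Ccr1, Ccr3 and Ccr2 lie close together on chromosome 9, with Ccr1l1 between Ccr1 and Ccr3. In GENCODE M21 on GRCm38, Ccr1 is at chr9:123962124-123968692 on the minus strand, Ccr3 at chr9:124021972-124031689 and Ccr2 at chr9:124101950-124113557, both on the plus strand. Ccrl2 (chr9:111054486-111057519, minus strand) and Cx3cr1 (chr9:119901616-120069879, minus strand) lie further off on the same chromosome. Cxcr4 is on chromosome 1 (chr1:128588199-128592293), Ccr7 on chromosome 11 (chr11:99144196-99155077) and Cxcr3 on the X chromosome (chrX:101731535-101734269), all on the minus strand.

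Genes around Ccr1, Ccr3 and Ccr2 were compared by their values, with no test of the neighbourhood. In chromosomal order the run reads Ccr1, Ccr1l1, Ccr3 and Ccr2, with log2 fold changes of 0.06, -0.12, -0.95 and -0.68. Only Ccr3 and Ccr2 of these 4 were called. As neighbours, 10 protein-coding RefSeq genes before this run and 7 after it were compared, and 13 of these 17 were tested. Of the 13, 1 was called higher and 0 lower by edgeR (all genes: 10.9% higher, 9.76% lower). At these shares, a count of 0 among 13 says little. The gene called higher was Lars2, the mitochondrial leucyl-tRNA synthetase, at 112 and 78.2 CPM in the WT libraries and 1427 and 1184 CPM in the anti-Act1 libraries (log2 fold change 3.78, standard error 0.09, edgeR adjusted p = 2.22e-35). DESeq2 also called 1 higher and 0 lower, and at an unadjusted p under 0.05 edgeR had 2 higher and 1 lower. The median log2 fold change of the 13 neighbours was -0.01.

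**Figure D3:**
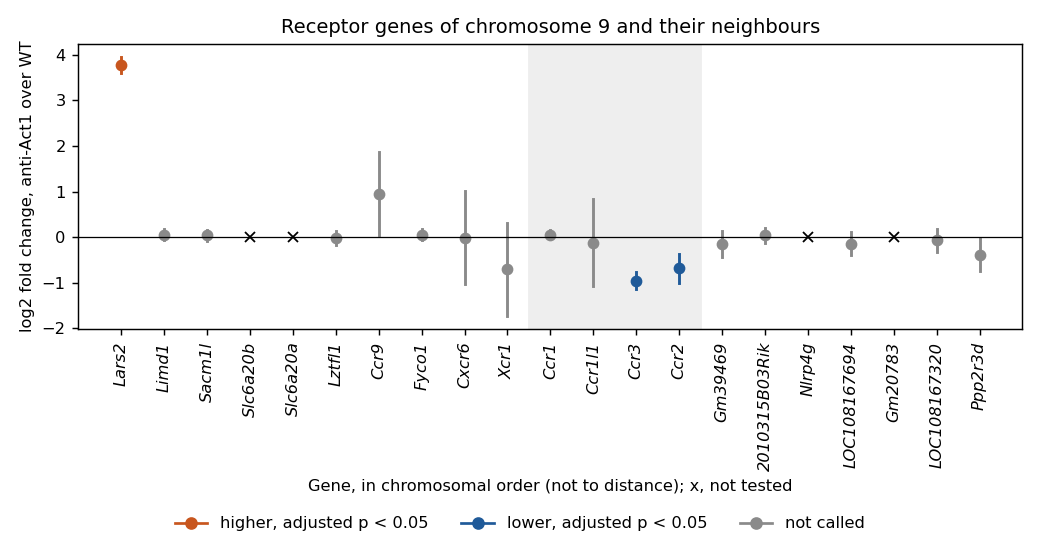
Log2 fold change of anti-Act1 over WT with its 95% interval for the genes around Ccr1, Ccr3 and Ccr2 on chromosome 9, in chromosomal order and not to distance (orange, called higher; blue, called lower; grey, not called; cross, not tested; shaded, the run from Ccr1 to Ccr2). Ccr3 (-0.95) and Ccr2 (-0.68) lie below 0 while Ccr1 (0.06) lies near it, and Lars2 (3.78) stands alone at the far left.

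RefSeq start sites (GRCm38.p6) were found for 7 of the 8 receptors. The 250 bases before the start are shown for the 3 receptors that passed the test, on the strand of the gene and 5′ to 3′, at chr9:111057519-111057768 (minus strand) for the most upstream of 3 starts of Ccrl2, at chr9:124021721-124021970 (plus strand) for Ccr3 and at chr9:124101933-124102182 (plus strand) for Ccr2. Capitals mark matches to an NF-kB core (GGG, any 5 bases, CC) and to an AP-1 site (TGANTCA), searched on both strands.
Ccrl2: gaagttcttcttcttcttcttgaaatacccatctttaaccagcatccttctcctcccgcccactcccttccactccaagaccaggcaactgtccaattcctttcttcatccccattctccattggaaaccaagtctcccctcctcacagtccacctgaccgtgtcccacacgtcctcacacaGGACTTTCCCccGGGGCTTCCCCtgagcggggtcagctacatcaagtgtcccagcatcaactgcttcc
Ccr3: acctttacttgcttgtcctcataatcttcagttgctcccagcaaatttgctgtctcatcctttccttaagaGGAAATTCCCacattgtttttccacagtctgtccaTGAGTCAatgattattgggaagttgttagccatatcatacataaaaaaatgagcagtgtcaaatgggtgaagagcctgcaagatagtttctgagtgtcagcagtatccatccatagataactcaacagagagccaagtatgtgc
Ccr2: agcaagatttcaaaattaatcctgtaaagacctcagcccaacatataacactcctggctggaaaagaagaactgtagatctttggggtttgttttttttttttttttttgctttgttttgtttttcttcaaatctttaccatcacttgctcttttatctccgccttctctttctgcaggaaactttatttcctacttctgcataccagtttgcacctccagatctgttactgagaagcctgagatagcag

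The window of Ccrl2 held an NF-kB core match that began 68 bases before the start and a pair of overlapping matches that began 56 and 55 bases before it. The windows of its other 2 starts held none, and they lie almost wholly within the Ccrl2 gene as GENCODE M21 places it. Ccr3 held 1 NF-kB core match, 179 bases before the start, and 1 AP-1 match, 144 bases before it, and Ccr2 held neither. The Ccr2 window begins at 124101933, but the gene begins at 124101950 in GENCODE M21. Most of this window is thus sequence within the gene, and the lack of matches does not describe the bases upstream of it. Single NF-kB core matches also stood in the windows of Ccr1, Cx3cr1 and Cxcr3, and Cxcr4 had none. The Cx3cr1 window lies within the GENCODE span of its gene, and the Cxcr3 window does so in part. The NF-kB core is loose and was found in 45.8% of all 32851 promoter windows of the same length, and the AP-1 site in 6.75%. A STAT core (TTCNNNGAA, 7.02% of windows) and an interferon element (GAAA, any 2 bases, GAAA, 2.98% of windows) were found in none of the windows of the 7 receptors, and a PU.1 site (GAGGAAGT, 2.44% of windows) in that of Cxcr3 alone. These are matches of letters, and binding was not measured.

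Ligands of these receptors moved in both directions. Of the 17 ligand genes, 11 were tested, of which 3 were called higher, 3 lower and 5 were not called (all genes: 10.9% higher, 9.76% lower). The median log2 fold change of the 11 was -0.10. Among the ligands of Ccr2, Ccl2 and Ccl7 were called lower. Ccl2 was at 13.6 and 12.8 CPM in the WT libraries and 7.01 and 7.60 CPM in the anti-Act1 libraries (log2 fold change -0.85, standard error 0.11, edgeR adjusted p = 1.62e-08). Ccl7 had a log2 fold change of -0.77 (standard error 0.15, edgeR adjusted p = 8.19e-05), while Ccl12, another of its ligands, had at most 18 counts and was not called (-0.26). For Cxcr3 the ligand rose and the receptor did not: Cxcl10 was at 2.86 and 3.48 CPM in the WT libraries and 9.39 and 8.79 CPM in the anti-Act1 libraries (log2 fold change 1.52, standard error 0.14, edgeR adjusted p = 3.2e-12), and Cxcl9 had at most 10 counts in any library.

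Among the ligands of Ccr1, Ccl6 was the most abundant at 1577 and 1647 CPM in the WT libraries and 1380 and 1274 CPM in the anti-Act1 libraries (log2 fold change -0.28, standard error 0.05, edgeR adjusted p = 2.69e-05). The inflammatory chemokines Ccl3, Ccl4, Ccl5 and Ccl9 were not called, with log2 fold changes from -0.18 to 0.02. The ligands Ccl8 (log2 fold change 1.41, edgeR adjusted p = 0.0323) and Cx3cl1, the ligand of Cx3cr1 (1.23, edgeR adjusted p = 0.0412), were called higher from at most 50 counts a library, and neither passed the test with DESeq2 (adjusted p = 0.138 and 0.157). Ccl8 did not pass it either without WT replicate 1 or either anti-Act1 library (edgeR adjusted p = 0.0603 to 0.345), nor did Cx3cl1 without WT replicate 2 or either anti-Act1 library (0.0842 to 0.385). Other ligands came close to absent from the macrophages: Ccl11 and Ccl19 were at 0 in all libraries, Cxcl12 had at most 4 counts, and Ccl24 had 23, 8, 2 and 4 counts. The chemerin gene Rarres2 was at 0 in 3 libraries and had 14 counts in anti-Act1 replicate 2.

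**Figure D4:**
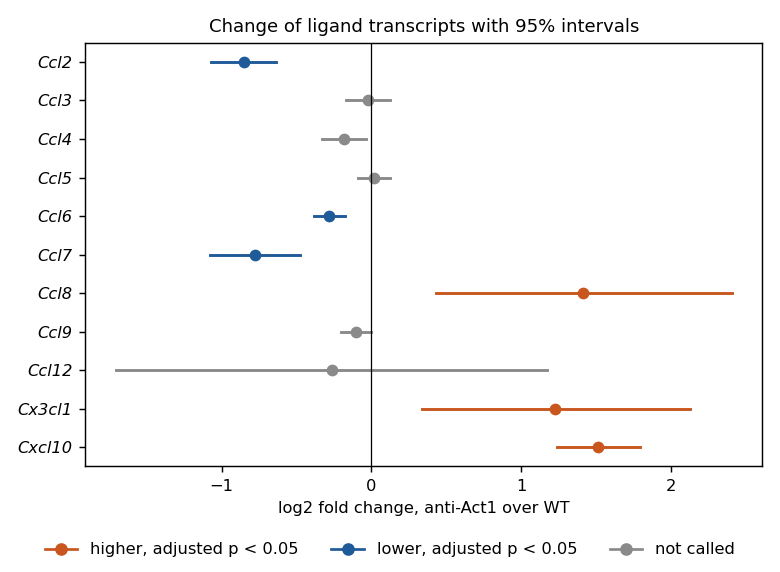
Log2 fold change of anti-Act1 over WT with its 95% interval for the 11 ligand genes tested (orange, called higher; blue, called lower; grey, not called). Cxcl10 (1.52) lies furthest to the right and Ccl2 (-0.85) furthest to the left, and the intervals of Ccl8, Ccl12 and Cx3cl1 are wide.

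Genes that pass on the receptor signal changed little in size. Of 24 signalling genes, all tested, 2 were called higher, 6 lower and 16 were not called (all genes: 10.9% higher, 9.76% lower). The log2 fold changes of the 24 ran from -0.29 to 0.20 with a median of -0.05. The called genes that fell were Dock2 (-0.29, edgeR adjusted p = 2.74e-05) and Elmo1 (-0.29), which together activate Rac, Rac1 itself (-0.23), the actin regulator Was (-0.18), the kinase Ptk2b (-0.19) and the kinase Rock1 (-0.17). Those that rose were Pik3r5 (0.20, edgeR adjusted p = 0.00238), a regulatory subunit of PI3K gamma, and the G protein subunit Gng12 (0.14). Several of these calls were lost under an alternative: Gng12 and Rock1 no longer passed the test in 10 and 7 of the 14 alternatives, Rock1 with a value of -0.05 without WT replicate 2, Was did not pass it without anti-Act1 replicate 1 or 2 (edgeR adjusted p = 0.158 and 0.0755), Ptk2b without anti-Act1 replicate 1 (0.126) and Pik3r5 without anti-Act1 replicate 2 (0.0559). Gnai2, the main inhibitory G protein alpha subunit of leukocytes, was at 800 and 801 CPM in the WT libraries and 795 and 844 CPM in the anti-Act1 libraries and was not called.

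Of 14 genes that switch the signal off, all tested, 1 was called higher, 5 lower and 8 were not called (all genes: 10.9% higher, 9.76% lower). The median log2 fold change of the 14 was -0.05. Rgs18 (-0.56, edgeR adjusted p = 1.59e-05), Rgs2 (-0.43, edgeR adjusted p = 3.31e-09) and Rgs10 (-0.36, edgeR adjusted p = 8.61e-06), regulators that shorten G protein signals, fell. The receptor kinase gene listed as Adrbk1 fell by 0.22 on the log2 scale (edgeR adjusted p = 0.000901). Of the arrestins, which bind the phosphorylated receptor, Arrb1 was called higher (0.21, edgeR adjusted p = 0.00156) and Arrb2 lower (-0.17, edgeR adjusted p = 0.0126). The call of Arrb1 was lost without anti-Act1 replicate 2 (edgeR adjusted p = 0.0529), and that of Arrb2 without WT replicate 1 (0.0561) or anti-Act1 replicate 1 (0.319). Rgs1, at 528 and 559.5 CPM in the WT libraries and 539 and 493 CPM in the anti-Act1 libraries, was not called.

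The cultures bore the markers of macrophages. Csf1r was at 2251 to 2441 CPM over the 4 libraries and Lyz2 at 15809 to 17734 CPM. Of 10 macrophage markers 1 was called higher, 4 lower and 5 were not called (all genes: 10.9% higher, 9.76% lower). Mrc1 (log2 fold change -0.63), Mertk (-0.40), Itgam (-0.31) and Aif1 (-0.25) were the lower ones, and Cd14 (0.16) the higher. Of 11 markers of T and NK cells, some of which carry Cxcr3 and Ccr7, 4 were tested. Cd4 was called higher (25.3 and 25.0 CPM in the WT libraries, 27.3 and 30.9 CPM in the anti-Act1 libraries, log2 fold change 0.21, edgeR adjusted p = 0.0358), and Lck, Cd2 and Zap70, with at most 63 counts in any library, were not called. Cd3e, Cd3d, Cd3g and Cd8a had at most 6 counts in any library and Cd8b1 had 0, and the summed level of the 11 was 26.7 to 32.7 CPM, most of it Cd4. Of 10 dendritic cell markers, another source of Ccr7, 7 were tested and 0 were called by edgeR or by DESeq2. Beside 10.9% higher and 9.76% lower over all genes, 0 of 7 says little. An unadjusted edgeR p under 0.05 was seen for 1 of the 7. The summed level of the 10 was 5.62 and 4.41 CPM in the WT libraries and 3.63 and 4.25 CPM in the anti-Act1 libraries. Of 6 epithelial markers, for the tumour cells on the other side of the insert, Epcam, Krt8, Krt18 and Krt19 had at most 2 counts in any library and Cldn7 at most 6, while Cdh1 had 29, 19, 16 and 4 counts and was not called (log2 fold change -1.01). The 5 fibroblast markers had at most 9 counts in any library. Of 7 neutrophil markers tested, 1 was called higher and 4 lower (all genes: 10.9% higher, 9.76% lower). S100a8 was the higher one (log2 fold change 0.66). The lower ones were S100a9 (-1.42), Ltf (-1.58), Ngp (-2.21) and Retnlg (22 and 19 counts in the WT libraries, 2 and 0 in the anti-Act1 libraries). The summed level of the 9 listed neutrophil markers was 6.67 to 7.68 CPM over the 4 libraries. S100a8 gave 3.61 and 3.74 CPM of it in the WT libraries and 6.09 and 5.55 CPM in the anti-Act1 libraries. The even sum thus does not show the fall of the genes called lower. The B cell markers summed to between 2.91 and 4.03 CPM, most of it Cd79b.

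For each receptor, the gene whose pattern over the 4 libraries lay nearest was sought among the 10887 to 10888 tested genes with a mean of at least 1 CPM, by the Euclidean distance between log2 CPM centred on each gene's mean. The nearest genes were Cd53 for Ccr1 (distance 0.00864), Sp140 for Cxcr4 (0.00798), Gm22 for Ccrl2 (0.0413), Ston2 for Ccr3 (0.0755), Armc6 for Cxcr3 (0.0416), Diaph3 for Ccr2 (0.0795), Usp11 for Ccr7 (0.0659) and Hsd11b1 for Cx3cr1 (0.317). Gm22 had a log2 fold change of 0.72 and Ston2 of -0.92, and both were called, whereas the other 6 were not. With 4 libraries in 2 groups, any gene that changes by a like amount lies near, and these names are a description only.

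**Figure D5:**
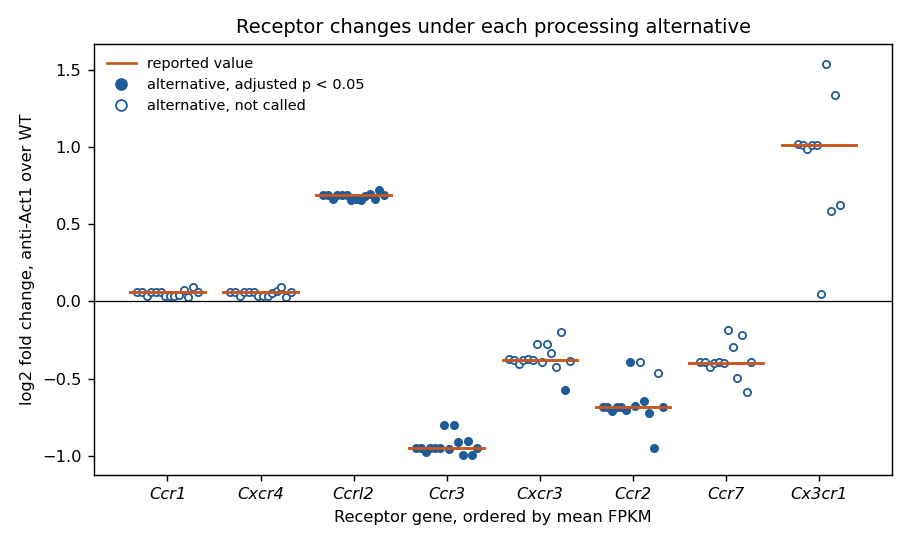
Log2 fold change of anti-Act1 over WT of the 8 receptors under each alternative way of processing (blue circles, filled where the adjusted p was under 0.05) beside the reported value (orange line). All circles are filled for Ccrl2 (0.66 to 0.72) and Ccr3 (-1.0 to -0.80), those of Ccr2 spread from -0.95 to -0.39 with 2 open, and those of Ccr1 and Cxcr4 are open and stay at or under 0.10.

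Under the 14 alternatives to the processing, Ccrl2 and Ccr3 passed the test each time. Their log2 fold changes ran from 0.66 to 0.72 and from -1.0 to -0.80. Ccr2 kept its direction in all 14 and passed the test in 12, and Cxcr3 kept its direction in all 14 and passed the test in 1. Ccr1 and Cxcr4 passed it in none, with largest values of 0.09 and 0.10.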

How the data were processed

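RNA was sequenced from 4 cultures of bone marrow-derived macrophages, 2 labelled anti-Act1 and 2 WT. The authors removed low-quality reads, aligned read pairs with TopHat and deposited whole counts per gene without normalization. A second deposited table holds FPKM, made from the counts with 1 length per gene and the column totals (checked on 11929 genes). The submitters' processing notes list Bowtie 0.12.2, HTSeq 0.6.1 and the builds mm8 and mm10, with no role. Of counts between 1 and 20, 67.2% were even.

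Counts were tested with edgeR 4.0.16 (R 4.3.3, TMM, filterByExpr, condition only, glmQLFit and glmQLFTest, two-sided, Benjamini-Hochberg). Of 21878 genes, 6383 were at 0 throughout and 12494 were tested. A count of 0 allows up to 3 counts, or 0.0395 to 0.0549 CPM, for counting error only. Results were recomputed under 13 other settings, with DESeq2 1.42.0 and limma 3.58.1 (log2 of FPKM plus 1 or 0.1, at least 1 FPKM in 2 libraries) among them, and under halved counts, added after the data were seen. The code was tested on simulated data. Gene positions came from GENCODE M21 and promoters from RefSeq (GRCm38.p6). Coordinates are those of the annotations, not of the deposited tables. The replicate numbers gave no sign of pairing, and whether the cultures were prepared in pairs is not given in the sources used here.

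The members and lists were chosen with earlier results of these data known. Named were all 8 receptors, Traf3ip2, the other chemokine receptors tested, listed ligands, signalling and desensitization genes with an adjusted p under 0.05, the nearest gene to each receptor and chromosome 9 neighbours that passed the test. Genes of these lists that did not pass, and single cell type markers, were named after their values were seen. Some genes of the lists are not reported here.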

Additional observations from a re-analysis of the deposited data

How the results depend on the processing

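Of 511 values of 38 named genes under the alternatives, 456 kept their direction and their side of the threshold, 48 kept their direction and no longer passed it, 2 passed it newly and 5 turned. Those that turned belonged to genes with few counts that were not called: Ccr1l1 ranged from -0.54 to 0.19 and Cxcr6 from -0.39 to 0.54 with each library left out, and Cxcr6 gave 0.041 with the replicate block. With limma on unfiltered log2(FPKM + 1), the calls were 1 receptor of the list lower (Ccr3), 0 other receptors lower, 1 ligand higher, 0 signalling genes higher, 3 desensitization genes lower, and 583 genes higher and 509 lower over all genes; with a pseudocount of 0.1 and the filter, 910 were higher. DESeq2 called 0 other receptors lower, 1 ligand higher and 1 signalling gene higher; it called Lars2 higher and no other tested neighbour. Signalling genes called higher also numbered 1 without composition normalization, without a filter on low counts, and with limma at either pseudocount. With each library left out, ligands called higher ranged from 1 to 2, other receptors lower from 0 to 1, signalling genes higher from 1 to 2 and lower from 3 to 8, desensitization genes higher from 0 to 1, and all genes lower from 741 to 1208. The replicate block called 0 other receptors lower and 1 signalling gene higher. It changed 2 calls among the 38 named genes, Cmklr1 (adjusted p = 0.0577) and Gng12 (adjusted p = 0.0826); the correlation of the within-group differences of same-numbered libraries was -0.03, so the numbers gave no sign of pairing. Halved counts left the calls of the list as they were. The causes were not tested. DESeq2 gave no adjusted p for Cx3cr1. At its depth of 6 to 16 counts a library the interval of Cx3cr1 ran from -0.40 to 2.45.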
